A study of Mus musculus with 6 samples.

Results

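MicroRNAs induced by cell stimulation were described here in sorted mouse skin and wound cells: all array names whose stem is miR-132, miR-212, miR-155, miR-146a or miR-146b. Of 690 miRNA names on the array 6 met this rule: mmu-miR-132-3p, mmu-miR-212-3p, mmu-miR-155-5p, mmu-miR-146a-5p, mmu-miR-146b-5p and mmu-miR-146b-3p (mmu, for mouse, is left off below). RNA came from 6 preparations of cells sorted from transgenic SMA-GFP mice, in which GFP follows the smooth muscle actin (SMA) gene that contractile cells switch on. All cells lacked CD45, carried by white blood cells, and CD31, carried by endothelium. The skin group (preparations 1, 2 and 5) held cells with low GFP from dermis, labelled fibroblast-like, and the wound group (preparations 3, 4 and 6) cells with high GFP from wounds 7 days after injury, labelled myofibroblasts. Each preparation was hybridised to 1 array, and all arrays lay on 1 slide. Animal age, strain background and the number of mice behind the preparations are not given in the sources used here. The spread that enters the p-values is therefore that between 3 preparations a group, and some of it may be technical. Tissue differs wherever GFP level does, and fewer cells with a miRNA and less of it per cell cannot be told apart in such sorted pools.

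A miRNA is cut as 1 arm of a folded precursor RNA and represses messenger RNAs that pair with its seed, bases 2 to 8 from its 5′ end. miR-132 and miR-212 are neighbouring precursors processed from a common transcript that the cyclic AMP-responsive factor CREB induces; they are best known from stimulated neurons, and miR-132 is also known from healing skin. miR-155 lies in the noncoding transcript Mir155hg and is induced by NF-kB and AP-1 in activated immune cells and fibroblasts. miR-146a is induced by NF-kB and feeds back on that pathway by repressing the signalling proteins TRAF6 and IRAK1, while miR-146b comes from another gene with the same seed.

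The mature sequences are shown because the seed groups decide which members can share targets. All 6 names matched the RefSeq table of the GRCm38.p6 build, and capitals mark the seed.
miR-132-3p: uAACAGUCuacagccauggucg
miR-212-3p: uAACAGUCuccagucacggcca
miR-155-5p: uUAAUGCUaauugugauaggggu
miR-146a-5p: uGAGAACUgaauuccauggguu
miR-146b-5p: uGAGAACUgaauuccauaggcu
miR-146b-3p: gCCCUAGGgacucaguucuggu
miR-132-3p and miR-212-3p shared the seed AACAGUC, which no other of the 1679 RefSeq mature names had. Over their 22 bases they differed at 5 positions, counted from the 5′ end with miR-132-3p first: A10C, C14U, U17C, U20C and G22A. miR-146a-5p and miR-146b-5p shared GAGAACU, again with no further name, and differed only at G18A and U21C, with miR-146a-5p first. miR-155-5p and miR-146b-3p shared their seeds with no name in the table.

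The precursors show which arm each array name measured, with that arm in capitals.
Mir132: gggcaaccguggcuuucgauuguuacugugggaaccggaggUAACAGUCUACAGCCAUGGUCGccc
Mir212: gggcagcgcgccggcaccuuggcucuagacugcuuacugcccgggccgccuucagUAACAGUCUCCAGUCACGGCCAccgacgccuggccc
Mir155: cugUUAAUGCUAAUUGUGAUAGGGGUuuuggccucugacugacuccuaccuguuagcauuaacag
Mir146: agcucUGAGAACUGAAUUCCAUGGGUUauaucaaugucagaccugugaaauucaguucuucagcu
In RefSeq, Mir212 and Mir132 lie next to each other on the plus strand of chromosome 11, between Hic1 and Ovca2 and within no other gene. Mir155, on the plus strand of chromosome 16, lies within the span of Mir155hg. Mir146, which encodes miR-146a, is on the minus strand of chromosome 11 within no annotated gene, and Mir146b, on chromosome 19, lies within the span of the noncoding gene Gm36493. The other arms of Mir132, Mir212, Mir155 and Mir146 were not analysed here.

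Signals were scanner intensities divided by each array's 75th percentile over probes that stood well above background everywhere (786 to 1772 intensity units) and taken to log2. Values below a common floor of 0.0253 on that scale (log2 -5.30) were raised to it. A probe was well above background on an array if the scanner flagged more than 50% of its spots as such. A miRNA was tested if it had such a probe on all 3 skin arrays, all 3 wound arrays or both. By this filter 222 names were tested, 4 of them members: miR-132-3p, miR-212-3p, miR-155-5p and miR-146a-5p. miR-146b-5p and miR-146b-3p were not tested. Levels of different miRNAs are not compared, since probes differ in brightness.

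All 4 tested members were higher in the wound cells in limma (threshold 0.05 after Benjamini-Hochberg adjustment). Among all 222 tested miRNAs 64.9% were called, 44.1% as higher and 20.7% as lower, so a call by itself was common. The 3 wound values lay above the 3 skin values for each of the 4, as they did for 48.6% of all tested miRNAs (69.8% were apart in either direction). miR-132-3p and miR-155-5p owed their test to the wound arrays alone, and these 2 and miR-146a-5p lay at the floor in skin, from where no lower value was possible. Of all 46 tested miRNAs at the floor on all 3 skin arrays, 35 were called higher. The members' differences were 1.21 to 2.01 on the log2 scale, with a median of 1.30 beside 0.38 for all tested miRNAs.

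**Figure D1:**
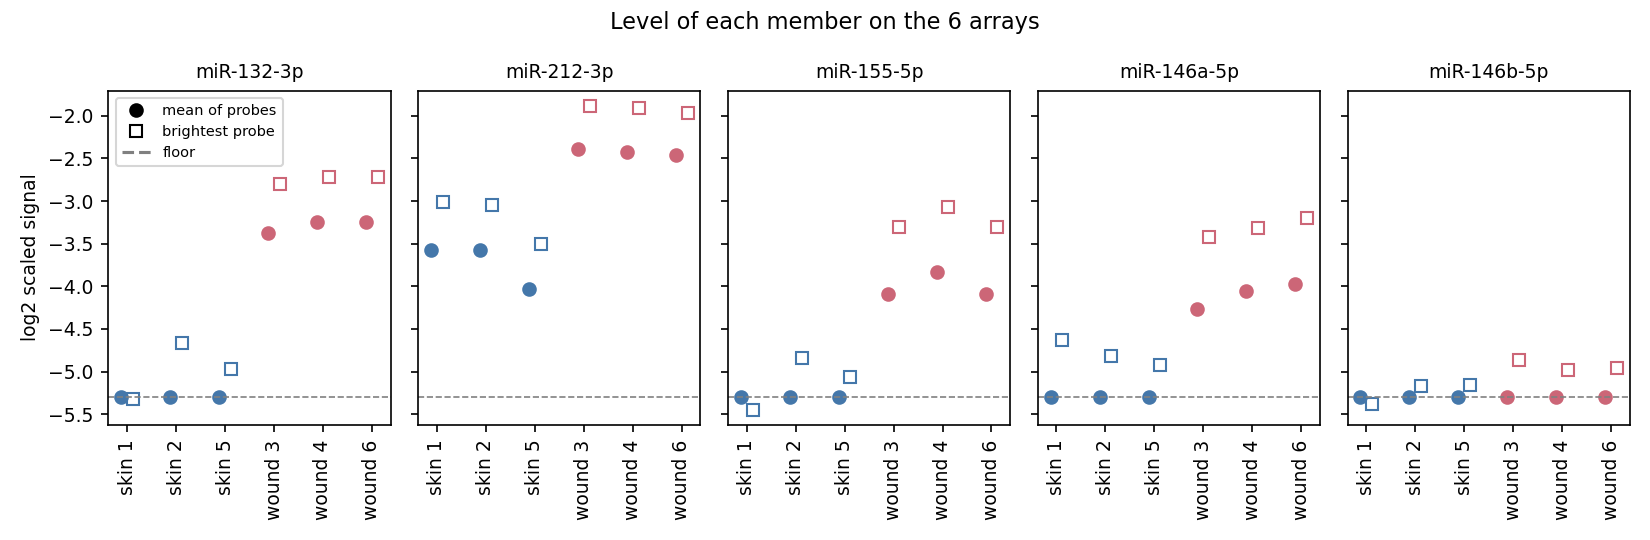
Level of 5 members on each of the 6 arrays (y axis: log2 scaled signal; x axis: array), as the mean over probes with the floor applied (filled circles) and for the brightest probe alone without a floor (open squares). Skin is blue, wound red, and the dashed line is the floor at -5.30, where the mean over probes of miR-132-3p, miR-155-5p and miR-146a-5p lies on all 3 skin arrays.

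miR-132-3p, which CREB signalling induces, had the largest difference of the 4 tested members in the main setting, but not with normexp background correction or a floor 4 times as high, where miR-212-3p differed more (1.37 against 1.18 and 0.88 against 0.036). Its log2 level was at the floor of -5.30 on all 3 skin arrays and -3.38, -3.24 and -3.25 on the arrays of wound preparations 3, 4 and 6. The wound values lay close together and well clear of the floor. The difference was 2.01 (SE 0.05, adjusted p = 3.49e-06 in limma), a 4.03-fold change measured from the floor. No spread is measured in skin when all 3 values sit at the floor, so this SE is too small.

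Its 2 probes were read separately for that reason. The brighter probe gave a mean of 37.1, 48.9 and 56.5 intensity units on the arrays of skin preparations 1, 2 and 5 and 113, 167 and 172 on those of wound preparations 3, 4 and 6. In skin it was well above background on 2 of 3 arrays, the exception being preparation 1, where 5 of 10 spots were flagged so. The dimmer probe was well above background on 0 skin arrays and on 3 wound arrays, which is how the mean over both fell below the floor in skin. After scaling, the brighter probe went from a log2 level of -4.99 ± 0.33 (mean ± SD, n = 3) to -2.75 ± 0.05, a 4.73-fold difference. With the brightest probe of every miRNA in place of the mean, limma gave 2.23 (SE 0.17, adjusted p = 4.93e-05). The floor still applied in that fit and set the value of skin preparation 1. Of 222 tested miRNAs 158 were called in it, 109 as higher, with a median difference of 0.48.

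miR-212-3p, its seed partner from the neighbouring precursor, was measured on every array. Its log2 level was -3.57, -3.58 and -4.04 on the arrays of skin preparations 1, 2 and 5. On the arrays of wound preparations 3, 4 and 6 it was -2.39, -2.42 and -2.46. The wound values were nearly equal, and skin preparation 5 lay below the other 2. The difference of 1.30 (SE 0.14, adjusted p = 0.000851 in limma) corresponds to 2.47-fold.

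Both miR-212-3p probes stood well above background on each of the 6 arrays and gave like differences, 1.27 for the brighter and 1.40 for the dimmer. The call depended on the scaling. With the 75th percentile of all probes the difference was 0.62 (adjusted p = 0.0930 in limma) and with quantile normalization 0.68 (adjusted p = 0.0776), where it did not pass. Its difference exceeded the median over the tested miRNAs by 0.92 in the main scaling and by 0.81 and 0.68 in these 2.

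**Figure D2:**
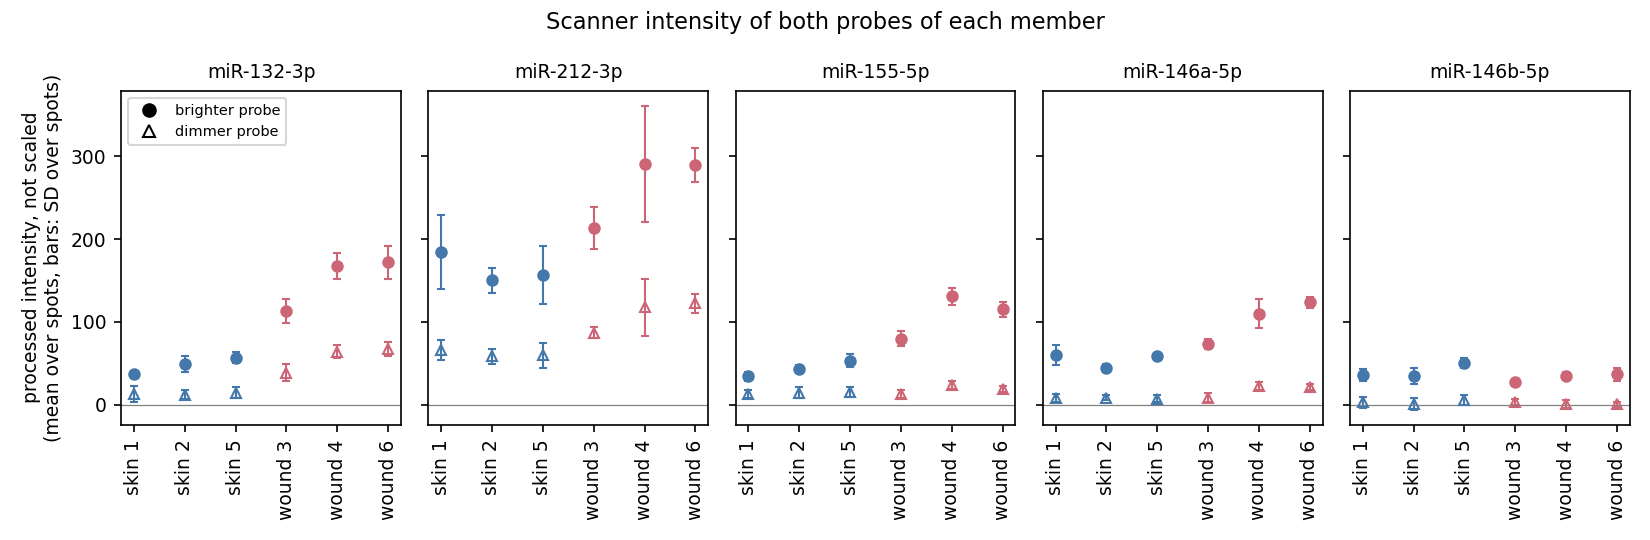
Scanner intensity, before scaling, of the probes of 5 members on each array (y axis: mean processed intensity over the unflagged spots of a probe; bars: SD over spots; x axis: array). Filled circles are the brighter probe and open triangles the dimmer one; the brighter miR-132-3p probe lies between 37.1 and 56.5 on skin arrays (blue) and between 113 and 172 on wound arrays (red).

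miR-155-5p, induced in activated immune cells and fibroblasts, was also higher in the wound cells. Its log2 level lay at the floor on all 3 skin arrays and was -4.09, -3.83 and -4.09 on the arrays of wound preparations 3, 4 and 6. The difference was 1.30 above the floor (SE 0.08, adjusted p = 0.000107 in limma), or 2.46-fold. As for miR-132-3p, this SE holds no spread from skin.

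The brighter of its 2 probes gave 34.1, 43.5 and 53.1 intensity units on the arrays of skin preparations 1, 2 and 5, and 79.7, 131 and 115 on those of wound preparations 3, 4 and 6. It was well above background on 2 of 3 skin arrays, with 3 of 10 spots flagged so in preparation 1, and on all 3 wound arrays. The groups did not overlap, and the scaled levels of -5.12 ± 0.31 and -3.22 ± 0.14 (n = 3 each) differed 3.71-fold. The dimmer probe was well above background on 0 of the 6 arrays. With the brightest probe of every miRNA limma gave a difference of 1.84 (SE 0.14, adjusted p = 5.93e-05), where the floor again set the value of skin preparation 1.

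miR-146a-5p, the feedback regulator of NF-kB signalling, was at the floor in skin as a mean over its probes and at -4.27, -4.05 and -3.97 on the arrays of wound preparations 3, 4 and 6. The difference was 1.21 (SE 0.08, adjusted p = 0.000142 in limma), or 2.31-fold from the floor, and this SE too holds no spread from skin. Its brighter probe was well above background on all 6 arrays. This probe gave 60.3, 44.1 and 58.4 intensity units for skin preparations 1, 2 and 5 and 73.1, 110 and 123 for wound preparations 3, 4 and 6. After scaling, its log2 levels were -4.79 ± 0.15 and -3.32 ± 0.11 (n = 3 each), a 2.78-fold difference with no overlap. The dimmer probe was well above background on 0 of the 6 arrays (7.00 to 8.52 intensity units in skin), and the mean over both fell below the floor in skin. The brightest-probe fit gave 1.47 (SE 0.11, adjusted p = 5.13e-05).

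miR-146b-5p, which has the same seed, was not tested because its brighter probe was well above background on only 2 of 3 arrays in each group. That probe gave 35.7, 34.7 and 49.7 intensity units for skin preparations 1, 2 and 5 and 26.9, 34.5 and 36.5 for wound preparations 3, 4 and 6. The unscaled ranges overlapped. After scaling the log2 levels were -5.38, -5.17 and -5.16 in skin and -4.87, -4.99 and -4.96 in the wound cells, and the groups no longer overlapped. The means of -5.23 ± 0.13 and -4.94 ± 0.06 (n = 3 each) gave a difference of 0.29 beside a median of 0.48 for all tested miRNAs by their brightest probes. As a mean over both probes it sat at the floor on all 6 arrays. Whether miR-146a-5p and miR-146b-5p differed in their response was not tested. None of the 4 probes of miR-146b-3p was well above background on even 1 array.

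The scanner's total signal per miRNA, which comes with its own error, also separated the groups. For miR-132-3p it was 21.8 ± 4.89 (signal ± scanner error), 28.1 ± 4.70 and 32.4 ± 5.04 on the skin arrays. The wound arrays gave 86.7 ± 8.60, 135 ± 11.8 and 138 ± 11.9; these errors are technical, within an array, and hold no spread between preparations. For miR-155-5p the skin totals were 20.1 to 30.4 and the wound totals 45.7 to 90.1, and for miR-146a-5p 25.3 to 35.5 and 41.9 to 83.4. Totals of miR-212-3p were 120 to 147 in skin and 172 to 239 in the wound cells. None of these totals is scaled, and the groups did not overlap for any of the 4. How many of all tested miRNAs were apart by unscaled totals was not counted. Scaled in the same way as the main values, they gave differences of 2.54 for miR-132-3p (SE 0.23, adjusted p = 0.000117 in limma), 1.15 for miR-212-3p, 1.82 for miR-155-5p and 1.48 for miR-146a-5p. Calls were common there too, with 146 of 222 tested miRNAs called, 94 as higher. The median difference of all tested was 0.29.

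**Figure D3:**
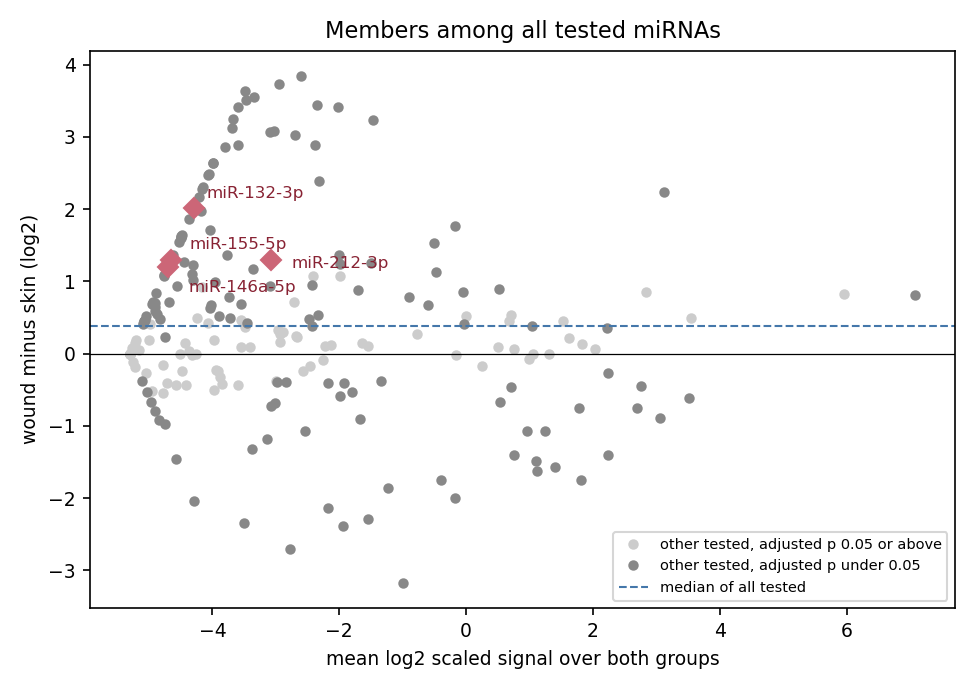
Difference between groups (y axis: wound minus skin, log2) against the mean level over both groups (x axis: log2 scaled signal) for 222 tested miRNAs. Red diamonds are the 4 tested members, between 1.21 and 2.01, and the dashed line is the median of all tested at 0.38; the slanted edges on the left are miRNAs with 1 group at the floor.

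How far the members moved relative to each other was read from their ratio on each array, which does not depend on the scaling except through the floor. miR-132-3p and miR-212-3p come from neighbouring precursors. The log2 ratio of miR-132-3p to miR-212-3p was -1.73, -1.72 and -1.27 on the arrays of skin preparations 1, 2 and 5 and -0.99, -0.82 and -0.79 on those of wound preparations 3, 4 and 6. All 3 wound ratios lay above all 3 skin ratios, and the means differed by 0.71 (exact two-sided permutation test, p = 0.1, the smallest that 3 against 3 arrays allow; 0.15 adjusted over the 3 pairs computed). With miR-132-3p at the floor in skin, its ratio there is an upper limit. With the brightest probes, a setting chosen after the data were seen, the ratio moved from -1.79 ± 0.44 to -0.82 ± 0.09 (n = 3 each), a difference of 0.97. The floor still applied there and set miR-132-3p on the array of skin preparation 1. With a floor 4 times as high the ratio was 0 on all skin arrays and the difference turned to -0.84, because both miRNAs then lay at the floor in skin. With normexp background correction, which here added an offset of 50 intensity units, miR-132-3p differed by less than miR-212-3p between groups (1.18 against 1.37). A change in this ratio was therefore not established.

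The ratio of miR-132-3p to miR-155-5p was 0 on all skin arrays because both lay at the floor there, and it averaged 0.71 in the wound cells, so no test of this pair is informative. With the brightest probes, under the same floor, it went from 0.09 ± 0.08 to 0.48 ± 0.12 (n = 3 each), a difference of 0.39. On the array of skin preparation 1 both miRNAs were still at the floor, which made that ratio 0. For miR-155-5p over miR-146a-5p the wound ratios of 0.18, 0.22 and -0.11 lay on both sides of the skin value of 0. The floor sets that skin value too, so the permutation test of this pair is not informative either. Both tests entered the adjustment over the 3 pairs computed. For miR-155-5p over miR-146a-5p the difference was 0.10. With the brightest probes the ratio was -0.68, -0.02 and -0.14 in skin and 0.12, 0.25 and -0.10 in the wound cells, and the ranges overlapped. In the ratio of -0.68 miR-155-5p was at the floor. With 3 arrays a group no ratio could reach a p under 0.1, so these values do not show whether the 2 miRNAs responded alike.

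**Figure D4:**
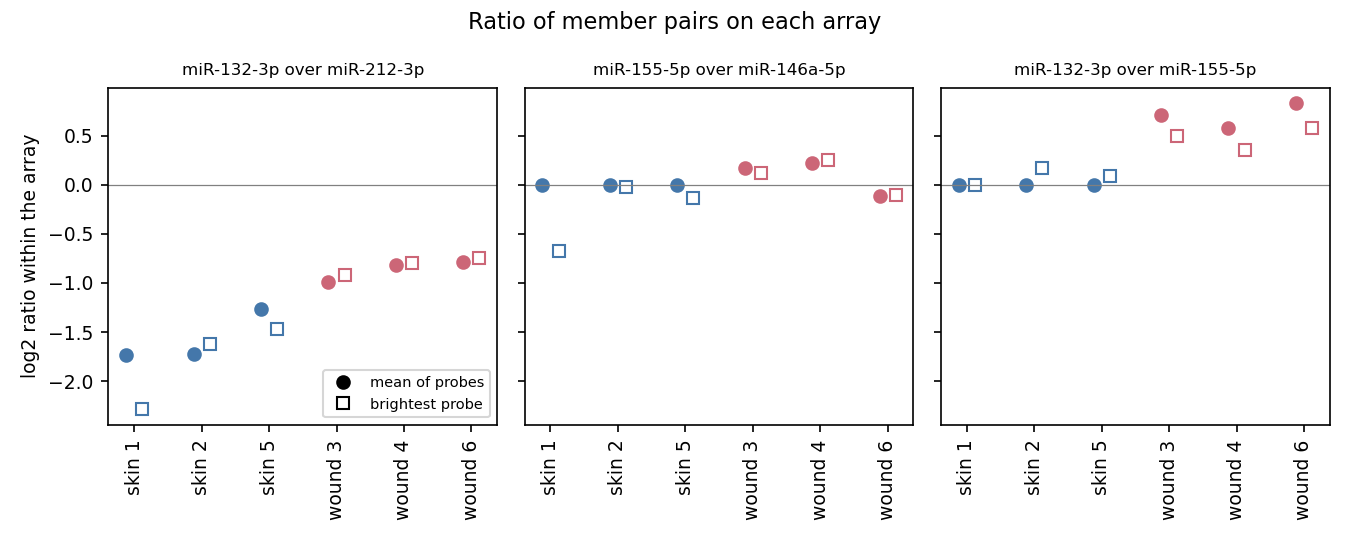
Log2 ratio of 3 member pairs within each array (y axis) by array (x axis), from the mean over probes (filled circles) and from the brightest probe of each miRNA (open squares). The floor was applied to both. Skin is blue and wound red; the ratio of miR-132-3p to miR-212-3p lies between -1.73 and -1.27 on skin arrays and between -0.99 and -0.79 on wound arrays by the mean over probes.

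Processing choices mattered because the members are dim. Over 5 ways of scaling the arrays, miR-132-3p differed by 1.48 to 2.01, miR-155-5p by 0.79 to 1.30 and miR-146a-5p by 0.59 to 1.21, each called in all 5. miR-212-3p differed by 0.62 to 1.30 and was called in 3. For each of the 4 members the main scaling gave the largest of the 5 differences. The median of all tested miRNAs itself ran from -0.19 to 0.38 over these scalings, and it too was largest in the main one. Calls over all miRNAs split into 98 higher and 46 lower in the main scaling, 52 and 76 with the 75th percentile of all probes, 66 and 66 with median scaling, 70 and 67 with quantile normalization and 54 and 54 without scaling. With normexp background correction the members differed by 1.07 to 1.37 against a median of 1.03, and 0 of 4 passed in limma (1 of 4 at an unadjusted p under 0.05, miR-212-3p). This setting added an offset of 50 intensity units. That amount lies within the skin range of the brighter probes of miR-132-3p, miR-155-5p and miR-146a-5p. The part of the offset in these values was not tested. With a floor 4 times as high, miR-155-5p and miR-146a-5p were at it on every array.

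**Figure D5:**
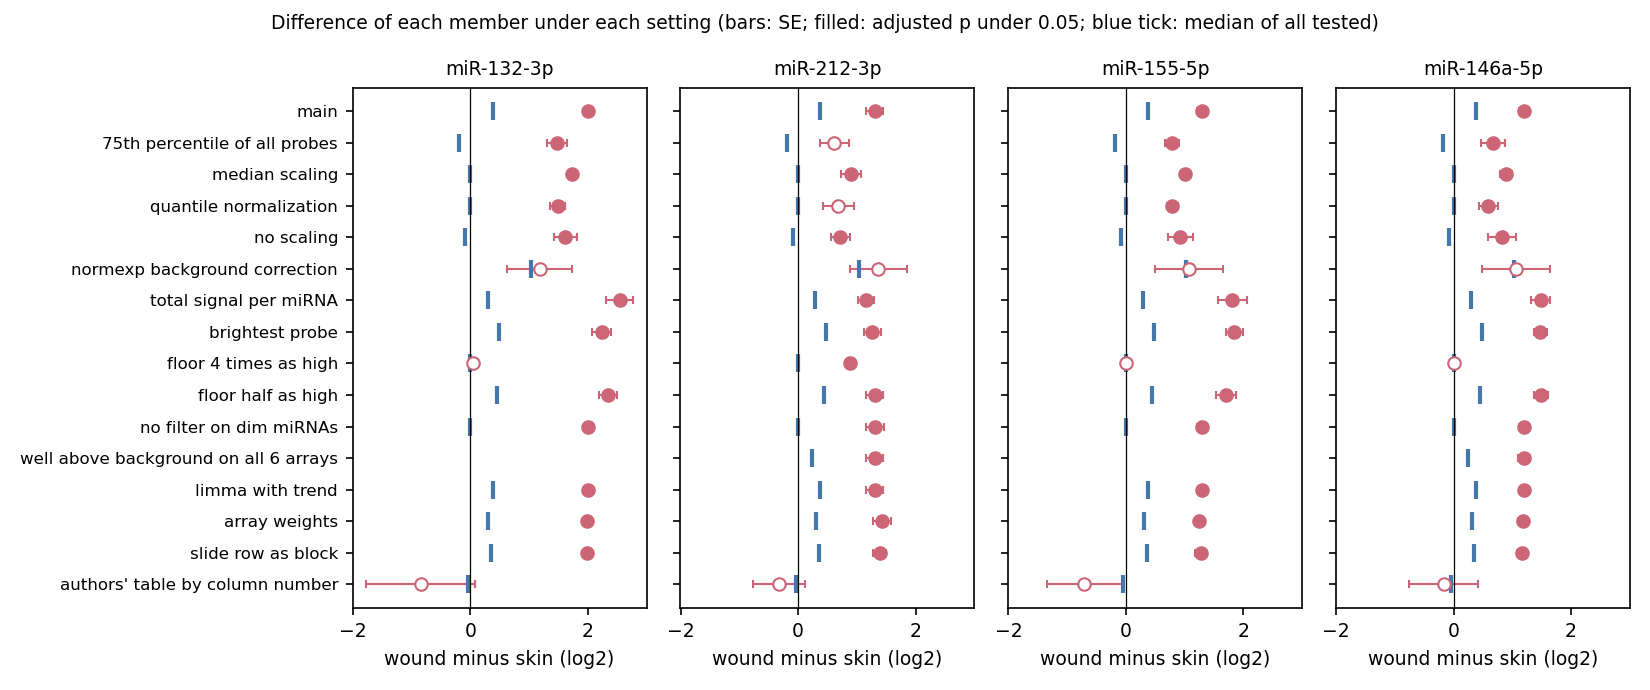
Difference of each tested member (x axis: wound minus skin, log2; bars: SE) under each processing setting (y axis). Filled points have an adjusted p under 0.05 in limma and blue ticks mark the median of all tested miRNAs; miR-132-3p stands at 2.01 in the main setting and at 0.036 with a floor 4 times as high.

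The arrays lay in 2 rows of the slide, each with both groups. Within row 1 (skin 1 and 2, wound 3) miR-132-3p differed by 1.93, miR-212-3p by 1.18, miR-155-5p by 1.21 and miR-146a-5p by 1.04. Within row 2 (skin 5, wound 4 and 6) the differences were 2.05, 1.59, 1.35 and 1.29 in the same order. Each member was higher in the wound cells in both rows. For miR-132-3p, miR-155-5p and miR-146a-5p the skin values at the floor fixed this sign in advance. With the brightest probes the differences in the same order were 2.18, 1.15, 1.77 and 1.30 in row 1. In row 2 they were 2.25, 1.56, 1.88 and 1.66. The floor applied there too and set miR-132-3p and miR-155-5p on the array of skin preparation 1.

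Markers of other cells were read beside these values, since miR-155 and miR-146a are abundant in leukocytes and miR-132 in neurons. Of 5 leukocyte names, both arms of miR-142, both arms of miR-150 and miR-223-3p, 0 were well above background on any array. Their summed signal was -0.0037 to 0.0048 in skin and 0.0040 to 0.0077 in the wound cells, in units of the scaling percentile. All 5 lay at the floor on all 6 arrays. Of 9 neuronal names, among them miR-124, miR-9 and miR-128, 1 (miR-219-5p) was well above background on 1 wound array and 0 were tested. Their sum was -0.013 to 0.017 in skin and 0.031 to 0.045 in the wound cells, and its part in the miR-132-3p result was not tested. As means over probes, the neuronal names other than miR-219-5p lay at the floor on all 6 arrays. miR-219-5p was at the floor in skin and averaged a log2 level of -5.11 in the wound cells. Skeletal muscle names numbered 5, with 0 well above background.

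The epithelial miR-203-3p and miR-205-5p, 2 of 12 names of that list above background, fell by 1.45 and 0.92 from skin levels to the floor (SE 0.24 and 0.26, adjusted p = 0.00436 and 0.0278 in limma). The list's summed signal went from 0.108 to 0.192 in skin to below 0 in the wound cells, and its part in the members' skin levels was not tested. The endothelial miR-126-3p did not pass (0.50, SE 0.22, adjusted p = 0.109 in limma). Red cell miR-451a was well above background on 2 skin arrays and 0 wound arrays and lay at the floor as a mean. Of 8 mesenchymal and smooth muscle names 7 were tested, 2 higher and 2 lower (1 to 3 higher and 2 to 3 lower over the 5 scalings). miR-143-3p rose by 1.24 (SE 0.06, adjusted p = 2.68e-05), and miR-145a-5p, called in 2 of the 5 scalings, by 0.65, while miR-199b-5p and miR-199a-3p fell by 0.75 and 0.62. miR-199a-5p (0.00), miR-214-3p (0.45) and miR-214-5p (at the floor) did not pass in the main scaling. miR-199a-5p was called in 3 of the 5 scalings, with differences from -0.69 to 0.21, and miR-214-3p in 1, from -0.24 to 0.68.

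Of 12 names on a list of other miRNAs that signalling induces 6 were tested, 3 were higher, a share near the 44.1% of all tested miRNAs, 0 lower and 3 did not pass (2 to 3 higher over the 5 scalings), with a median difference of 0.55 beside 0.38 for all tested. miR-21a-5p, linked to fibrosis and induced by AP-1, rose by 2.24 (SE 0.10, adjusted p = 2.92e-05 in limma). miR-31-5p, which NF-kB induces in keratinocytes, was not well above background in skin and rose by 1.27 from the floor (SE 0.16, adjusted p = 0.00145). miR-221-3p rose by 0.63 (adjusted p = 0.00449) in the main scaling only and turned to -0.13 in another. miR-210-3p, induced by hypoxia, differed by 0.47 (adjusted p = 0.0524 in limma) and turned sign with scaling (down to -0.22). miR-134-5p and miR-21a-3p were well above background on 0 skin arrays and 3 wound arrays. As means over probes they were at or near the floor in both groups. miR-147-3p, miR-187-3p, miR-222-3p, miR-31-3p and both arms of miR-9 stood well above background on 0 of the 6 arrays.

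The miRNAs most like each member were found by the root-mean-square distance of their log2 values over the 6 arrays, each taken about its own mean. For miR-132-3p they were miR-541-5p (distance 0.06), miR-380-3p (0.09) and miR-431-5p (0.15). miR-155-5p was nearest to miR-34c-5p (0.06), miR-450a-5p (0.08) and miR-376b-5p (0.08), and miR-146a-5p to miR-450a-5p (0.10), miR-382-3p (0.10) and miR-369-5p (0.11). All of these lay at the floor on all 3 skin arrays, so the likeness is in their wound values alone. For miR-212-3p, measured in both groups, the nearest were miR-382-3p (0.16), miR-450a-5p (0.16) and miR-143-3p (0.17), of which miR-143-3p was above the floor in skin.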

How the data were processed

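The authors deposited 1 scanner file per array, made with Agilent Feature Extraction 10.7.3.1 per the file headers, holding linear spot intensity that is background-subtracted and not normalized between arrays. Intensity was averaged over unflagged spots of each probe (2.14% to 3.11% of spots were flagged, 0 saturated), scaled, averaged over the probes of a miRNA, floored and taken to log2, so differences of dim miRNAs are compressed. Groups were compared with limma 3.58.1 (lmFit, eBayes, two-sided, R 4.3.3, threshold 0.05), and the number of arrays limits precision. The fit was checked on simulated data in which no group was held at the floor. That check does not cover miRNAs with all values of a group at the floor. Named are all members, the 3 miRNAs nearest in profile to each called member, the 3 largest called differences of each list and markers well above background on any array. Members and lists were chosen with earlier results of these data known. Alternatives covered scaling, background, floor, filter, probe summary, model, slide row and each array left out. The authors' deposited log2 table numbers its columns differently from the array titles (0 of 6 agree when its values are set against the scanner totals) and was used only as an alternative; no source used here gives its processing. Figures were drawn with matplotlib 3.10.9.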

Additional observations from a re-analysis of the deposited data

How the results depend on the processing

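All 4 tested members were called higher in limma in the main setting and when any 1 of the 6 arrays was left out (4 in each). miR-132-3p, miR-155-5p and miR-146a-5p lay at the floor on all skin arrays, so leaving out a skin array could change their skin mean little. Without skin 1 or without wound 3, miR-146b-5p also met the filter, and 4 of 5 members were called, miR-146b-5p not among them. Leaving out an array gave 1.97 to 2.07 for miR-132-3p, 1.15 to 1.40 for miR-212-3p, 1.20 to 1.38 for miR-155-5p and 1.15 to 1.32 for miR-146a-5p, and 127 to 136 calls over all miRNAs in place of 144. The ratio differences then ran from 0.58 to 0.85 (miR-132-3p over miR-212-3p), 0.65 to 0.77 (miR-132-3p over miR-155-5p) and 0.03 to 0.20 (miR-155-5p over miR-146a-5p). With normexp 0 members and 23 of 222 miRNAs passed (55 at an unadjusted p under 0.05), and with a floor 4 times as high 1 and 78. Requiring signal well above background on all 6 arrays left 2 members tested, both called as higher. In that setting 96 of 156 miRNAs were called, 59 of them as higher. With the authors' table taken by its column numbers, 0 members and 0 of 202 miRNAs passed in limma (1 at an unadjusted p under 0.05). Members came out at -0.85, -0.32, -0.71 and -0.17 for miR-132-3p, miR-212-3p, miR-155-5p and miR-146a-5p. By their values, however, columns 1 to 6 hold wound 3, 4 and 6 and skin 1, 2 and 5, in that order. Grouping by column number thus mixed skin and wound arrays, so these values do not bear on the difference between groups.

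The ratio of miR-132-3p to miR-212-3p differed by 1.39 with total signals, 1.04 with a floor at 0.5 of its height and -0.84 with one 4 times as high, where both lie at the floor in skin. That of miR-132-3p to miR-155-5p differed by 0.036 with the higher floor and 0.39 with the brightest probes, and that of miR-155-5p to miR-146a-5p by 0.33 with total signals and 0.37 with the brightest probes. The cause was not tested further. Signal close to background limits every skin level of miR-132-3p, miR-155-5p and miR-146a-5p. No paired analysis was made because the labels state no pairing between skin and wound preparations.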

Other observations

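The scanner's own detection call per miRNA was more lenient than the rule used above. It called miR-132-3p, miR-212-3p, miR-155-5p, miR-146a-5p and miR-146b-5p detected on all 6 arrays and miR-146b-3p on none. For miR-146b-5p the total signal was 21.0, 19.9 and 28.5 on the arrays of skin preparations 1, 2 and 5 and 15.4, 20.2 and 21.1 on those of wound preparations 3, 4 and 6, and the ranges overlapped.

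The spread between the spots of a probe gives the technical error within an array. For the brighter probes of the tested members the coefficient of variation over spots was 9.32% to 19.2% for miR-132-3p, 7.09% to 24.4% for miR-212-3p, 7.94% to 15.7% for miR-155-5p and 5.78% to 20.1% for miR-146a-5p.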
